A study of Mus musculus with 6 samples.

Results

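The AP-1 and immediate early factors described here are 10 genes, Fos, Fosb, Fosl2, Jun, Junb, Jund, Egr1, Ier2, Ier3 and Atf3. They were matched by symbol, and all 10 are among the 15483 genes listed in each of 6 tables of RNA-seq values from mouse bone marrow. Of the libraries 3 came from wild-type mice at 3 months after irradiation and 3 from wild-type control mice. In both groups the cells were sorted from bone marrow as regulatory T cells (Tregs), a CD4 lineage that keeps other immune cells in check, by a gate on CD3, CD4 and Foxp3 without NK1.1. The series title links the irradiated state with premature ageing. The sources used here give no radiation dose and no strain, age or sex of the mice. They also do not tell whether a library is 1 animal or a pool, or whether replicates are different animals. The p-values therefore rest on the spread among these libraries alone, and part or all of it may be technical.

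AP-1 is a family of transcription factors that bind DNA as pairs joined through a leucine zipper. Fos proteins must pair with a Jun protein, while Jun proteins can also pair with each other and with ATF and BATF proteins. Immediate early genes are those whose transcription starts within minutes of a signal, without new protein synthesis, and MAP kinases acting on serum response factor, its partners and CREB are the classical route. In T cells the antigen receptor drives them, and their products help to decide between activation and tolerance.

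Levels are in FPKM, that is sequenced fragments corrected for transcript length and for library size, so levels of different genes can be set side by side. Column totals were between 480854 and 485365 FPKM in irradiated libraries and between 451444 and 470375 FPKM in control libraries. The absolute depth is unknown, and relative depth read from the lowest values was 81.6% to 92.6% of control replicate 1 in irradiated libraries and 98.4% to 103% in the other control libraries. The labelled cell type was checked against marker lists. Of 18 tested T cell core genes 0 were higher and 14 lower in irradiated libraries, with a summed level of 401 to 414 FPKM in irradiated and 623 to 645 FPKM in control libraries. Of 10 Treg markers 0 were higher and 9 lower, with sums of 94.9 to 105.4 FPKM in irradiated and 166 to 172 FPKM in control libraries. Of 18 neutrophil markers 12 were higher and 0 lower, with sums of 103220 to 106272 FPKM in irradiated and 71412 to 76726 FPKM in control libraries. No gene of these 3 lists was at 0 in any library, and the neutrophil sum exceeded the T cell sum in all 6, so the values go against libraries made up mainly of Treg transcripts. In such bulk samples, fewer cells of a type and less RNA per cell cannot be told apart.

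The design addresses which of these factors differed 3 months after irradiation. Fosb and Ier3 were about 2.38 and 2.04 times as high in mean FPKM in irradiated as in control libraries, Ier2 was higher by a small amount that turned round when libraries were scaled to neutrophil markers, and Egr1 and Atf3 were lower, with calls that were not made when libraries were scaled to T cell core genes. Leaving out 1 library lost the call of Egr1 in 3 of 6 fits and those of Ier2 and Atf3 in 5 of 6. Fos, Fosl2, Jun, Junb and Jund did not pass the test on the values as deposited. The test was limma on log2(FPKM + 1), two-sided, for genes averaging 1 FPKM or more over the 6 libraries, with Benjamini-Hochberg adjustment over all 10666 tested genes and a threshold of 0.05, and all 10 members passed that filter on low values. Of the members 3 were called higher and 2 lower, while over all tested genes 16.6% were called, 6.29% higher and 10.3% lower. The groups did not overlap for 6 members, 3 higher and 3 lower, while over all tested genes they did not overlap for 33.6%, 13.5% higher and 20.1% lower. The members were chosen with results of these data known, so these shares are a description. The median log2 change was 0.01 over the members and -0.02 over all tested genes.

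**Figure D1:**
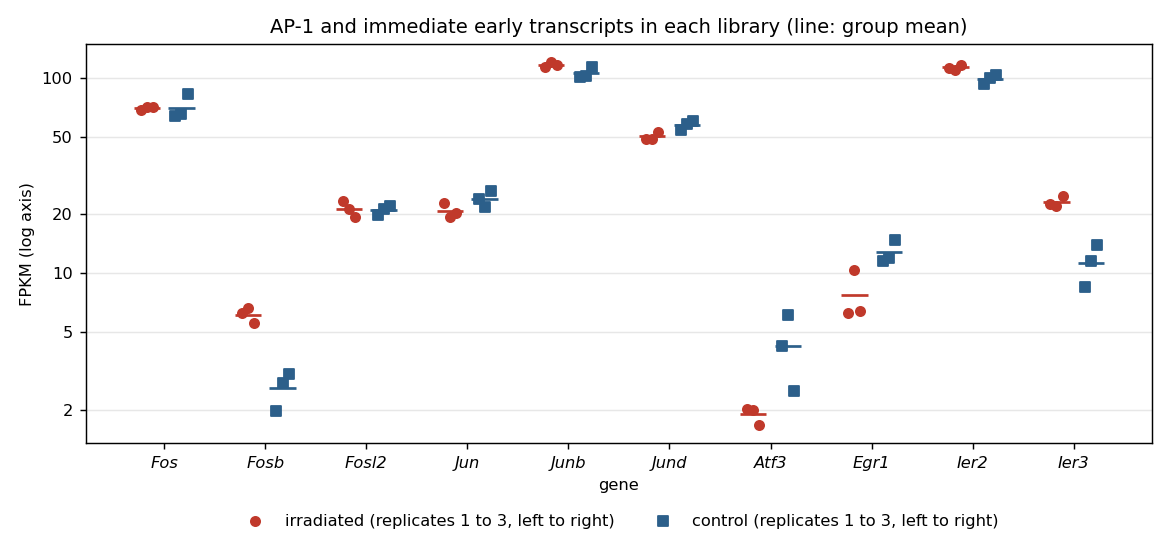
Deposited FPKM (log axis) of the 10 genes in each of 3 irradiated and 3 control libraries, with a line at each group mean. The irradiated values of Fosb, Ier2 and Ier3 all lie above the control values, those of Egr1, Atf3 and Jund all lie below, and the groups overlap for the other 4 genes.

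Fosb, a Fos protein whose stable short splice form is known from chronically stimulated neurons, was the least abundant Fos gene of the members and was with Ier3 one of the members with a log2 change near 1. It lies on chromosome 7 (19302696 to 19310051, minus strand; GENCODE M21 on GRCm38, as are all gene positions here). Fosb stood at 6.28, 6.65 and 5.56 FPKM in irradiated replicates 1, 2 and 3, against 1.97, 2.75 and 3.06 FPKM in control replicates 1, 2 and 3. The lowest irradiated library was thus above the highest control library. Its log2 change was 1.01 ± 0.15 (SE) with a limma adjusted p of 0.000800, and it kept its call in all 6 fits that left out 1 library (0.87 to 1.10). Gene values do not separate its splice forms.

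Fos, the founding member, is on chromosome 12 (85473890 to 85477273, plus strand) and was far more abundant. Fos was at 68.5, 70.8 and 70.4 FPKM in irradiated replicates 1, 2 and 3, against 63.9, 64.9 and 82.2 FPKM in control replicates 1, 2 and 3. The irradiated libraries lay close together and inside the control range, which control replicate 3 set at its upper end. As deposited the log2 change was 0.00 with a 95% interval from -0.19 to 0.19 and a limma adjusted p of 0.999. On the scales described further on Fos was called higher with T cell core genes (0.57, limma adjusted p = 0.000114). With neutrophil markers it was called lower (-0.30, 0.0192). The median of all tested genes moved to 0.49 and -0.30 there, so the interval holds for the deposited scale only. Fosl2, which encodes Fra-2 (chromosome 5, 32135801 to 32157842, plus strand), was at 23.3, 21.2 and 19.4 FPKM in irradiated and 19.9, 21.3 and 21.97 FPKM in control libraries. The groups overlapped, and its log2 change as deposited was 0.01 with a 95% interval from -0.18 to 0.21. Fosl2 was likewise called higher on the T cell scale (0.56, limma adjusted p = 0.000194) and lower on the neutrophil scale (-0.28, 0.0238).

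The level of Fosb relative to Fos was higher in each irradiated library than in any control library. Fosb was at 9.17%, 9.39% and 7.90% of the Fos FPKM in irradiated replicates 1, 2 and 3, and at 3.09%, 4.23% and 3.72% in control replicates 1, 2 and 3. This ratio is taken within a library, so scaling between libraries drops out, and the groups did not overlap. Differences in the mix of cell types do not drop out. The log2 ratio was 1.27 higher in irradiated libraries, and an exact permutation test, two-sided, gave p = 0.1, which is the lowest value 3 libraries against 3 can give. Of the summed FPKM of Fos, Fosb, Fosl2 and Fosl1, Fosb took 6.33% ± 0.457 in irradiated and 2.75% ± 0.404 in control libraries (SD, n = 3 each). Fos took 71.8% ± 2.003 in irradiated and 74.7% ± 1.88 in control libraries. Fosl1, the other Fos gene, was listed at 0 in all irradiated libraries and in control replicates 1 and 3, with 0.0687 FPKM in control replicate 2.

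**Figure D2:**
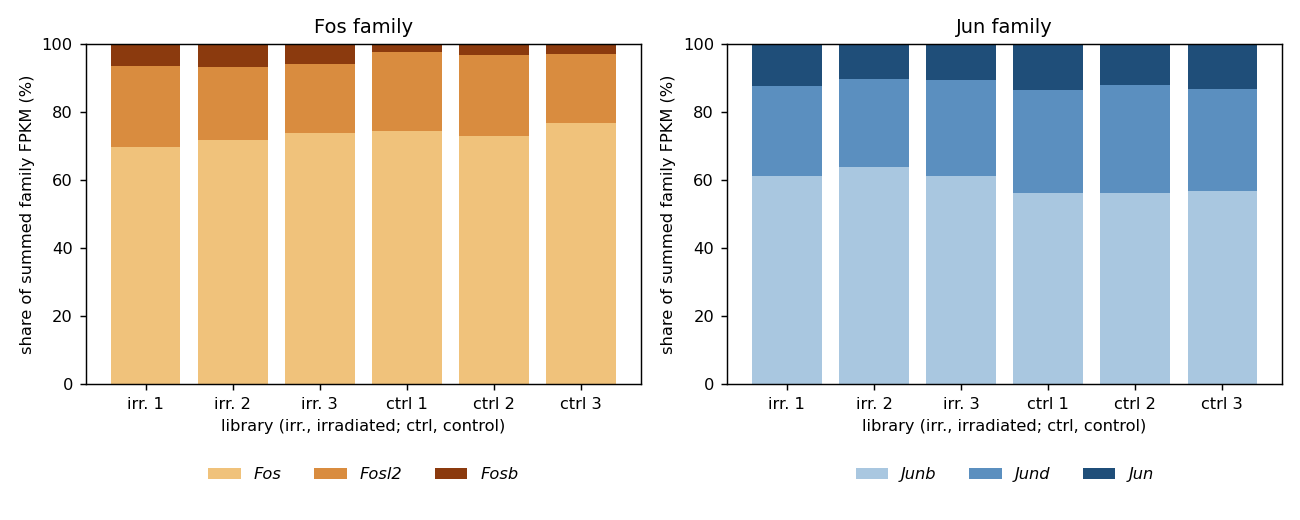
Share (%) of each gene in the summed FPKM of its family in each library, irradiated libraries left and control libraries right, with Fosl1 left out of the drawing. Fosb takes 5.83% to 6.74% in irradiated and 2.30% to 3.08% in control libraries, and Junb 61.2% to 63.8% in irradiated and 56.2% to 56.9% in control libraries.

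The sequences before the start sites of Fosb, Fos and Ier3 are shown because Fosb and Ier3 were the members with the largest rises while the paralogue Fos did not pass. They are RefSeq windows on GRCm38.p6, with 250 bases before the start site and 50 from it onward, read 5′ to 3′ on the strand of the gene. The windows are chr7:19309996-19310295 (minus strand) for Fosb, chr12:85473640-85473939 (plus strand) for Fos and chr17:35821463-35821762 (plus strand) for Ier3. Capitals mark matches on either strand to TGACG (the core of the CREB and ATF site), GCGNGGGCG (the EGR site), GGANTTTCC (a form of the NF-kB site) or TATAA.
Fosb: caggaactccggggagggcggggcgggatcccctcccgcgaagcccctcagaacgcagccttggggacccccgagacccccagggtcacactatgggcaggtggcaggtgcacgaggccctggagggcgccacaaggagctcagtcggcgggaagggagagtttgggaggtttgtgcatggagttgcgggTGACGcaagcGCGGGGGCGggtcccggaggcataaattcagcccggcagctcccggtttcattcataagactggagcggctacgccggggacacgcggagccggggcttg
Fos: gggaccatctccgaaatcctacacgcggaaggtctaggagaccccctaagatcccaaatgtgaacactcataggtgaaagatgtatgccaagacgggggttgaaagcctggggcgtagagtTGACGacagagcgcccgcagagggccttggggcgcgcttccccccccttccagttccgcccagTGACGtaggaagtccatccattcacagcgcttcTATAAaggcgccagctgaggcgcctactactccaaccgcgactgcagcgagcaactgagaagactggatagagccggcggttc
Ier3: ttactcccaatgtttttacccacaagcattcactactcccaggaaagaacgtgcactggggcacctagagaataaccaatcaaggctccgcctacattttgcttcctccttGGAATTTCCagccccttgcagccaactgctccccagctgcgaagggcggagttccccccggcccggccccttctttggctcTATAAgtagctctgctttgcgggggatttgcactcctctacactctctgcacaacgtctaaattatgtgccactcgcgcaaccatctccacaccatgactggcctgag
Fosb holds TGACG from 60 to 56 bases before its start site and GCGNGGGCG from 50 to 42 bases before it. Fos holds TGACG from 129 to 125 and from 66 to 62 bases before its start site, and TATAA from 33 to 29 bases before it. Ier3 holds GGANTTTCC from 139 to 131 and TATAA from 58 to 54 bases before its start site. These distances hold for the RefSeq start sites. The GENCODE starts of Ier3 (35821684) and Fosb (19310051) lie upstream of them, so the same matches are closer to those starts.

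Windows of 8 members were found in that table, and Egr1 and Ier2 are named only. TGACG was in 4 of the 8 (Fos, Fosb, Junb and Atf3) and in 21.0% of all 27025 windows, and GCGNGGGCG was in 2 (Fosb and Fosl2) and in 5.55% of all. GGANTTTCC was in 1 of the 8 (Ier3) and in 1.23% of all, and TATAA was in 3 (Fos, Junb and Ier3) and in 25.5% of all. The whole CREB site TGACGTCA (1.88% of all windows), the AP-1 site TGANTCA (7.93%) and the CArG box of serum response factor (1.57%) were in 0 of the 8, which says only that these letters are not in these windows. TGACG is part of TGACGTCA, and the motifs were chosen after some of the windows were seen. A match is a description and not a site of binding.

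Ier3, also called IEX-1, encodes a small stress protein that modulates apoptosis and is a known target of NF-kB and ERK signalling (chromosome 17, 35821684 to 35822923, plus strand). Ier3 stood at 22.7, 22.002 and 24.7 FPKM in irradiated replicates 1, 2 and 3, against 8.48, 11.6 and 14.0 FPKM in control replicates 1, 2 and 3. All irradiated libraries were above all control libraries, and the control libraries were spread more widely. The log2 change was 0.99 ± 0.14 (SE) with a limma adjusted p of 0.000678, and the call was kept in all 6 fits that left out 1 library (0.81 to 1.15).

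Ier2, an intronless gene for a nuclear protein of the immediate early response (chromosome 8, 84661331 to 84662852, minus strand), was among the most abundant members. Ier2 was at 112.6, 109.7 and 115.8 FPKM in irradiated replicates 1, 2 and 3, against 92.2, 99.8 and 103.1 FPKM in control replicates 1, 2 and 3. The groups did not overlap, but the mean was only 1.15 times as high in irradiated libraries. The log2 change of 0.20 ± 0.06 (SE), which was -0.11 on the neutrophil scale described further on, had a limma adjusted p of 0.0376, and that call was kept only without control replicate 3 (0.0207). It was lost without control replicate 1 (0.145) or 2 (0.0844) and without irradiated replicate 1 (0.0858), 2 (0.0606) or 3 (0.117). It was also lost without a trend in the variance (0.146) and with no filter on low values (0.0627).

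Jun, Junb and Jund are the partners through which Fos proteins bind DNA, and Junb is known to be needed by effector Tregs. Jun (chromosome 4, 95049034 to 95052222, minus strand) was at 23.0, 19.3 and 20.4 FPKM in irradiated and 24.0, 21.8 and 26.3 FPKM in control libraries. The groups overlapped, and the log2 change of -0.19 had a 95% interval from -0.40 to 0.02. Junb (chromosome 8, 84974484 to 84978718, minus strand), the most abundant member, was at 113.0, 120.0 and 116.5 FPKM in irradiated and 100.1, 102.4 and 113.6 FPKM in control libraries. Only control replicate 3 overlapped the irradiated range, and the log2 change of 0.15 did not pass (limma adjusted p = 0.125), although it passed without that library (0.0247). Jund, the Jun gene often linked with resting cells (chromosome 8, 70698949 to 70700616, plus strand), was at 48.8, 48.7 and 53.0 FPKM in irradiated and 54.2, 57.9 and 59.8 FPKM in control libraries. Its groups did not overlap, yet the log2 change of -0.19 ± 0.06 (SE) did not pass (limma adjusted p = 0.0717).

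Junb and Jun lay on different sides of 0 as deposited. Both were above 0 when scaled to T cell genes and below 0 when scaled to neutrophil markers. Their ratio within a library is free of that scaling, but not of differences in the mix of cell types. Junb was at 491%, 621% and 572% of the Jun FPKM in irradiated replicates 1, 2 and 3, and at 417%, 471% and 431% in control replicates 1, 2 and 3. The groups did not overlap, and the log2 ratio was 0.35 higher in irradiated libraries (exact permutation test, two-sided, p = 0.1, again the lowest possible). Of the summed Jun family FPKM, Junb took 62.1% ± 1.48 in irradiated and 56.4% ± 0.389 in control libraries (SD, n = 3 each). Jund took 26.7% ± 1.06 in irradiated and 30.7% ± 0.982 in control libraries, while the family sum was 188 ± 2.58 FPKM in irradiated and 187 ± 11.4 FPKM in control libraries. Junb overlaps Prdx2 on the opposite strand over 351 bases, Jun overlaps Junos over 689 bases and Jund overlaps Gm11175 over 919 bases. The kit marks strand, but the sources used here do not tell whether counting used it, so reads in these overlaps may be shared. Prdx2 was at 65.8 ± 5.65 FPKM in irradiated and 70.8 ± 4.76 FPKM in control libraries and did not pass (limma adjusted p = 0.388).

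Egr1, a zinc finger factor and the classical read-out of ERK signalling, fell (chromosome 18, 34859823 to 34864984, plus strand). Egr1 was at 6.30, 10.5 and 6.42 FPKM in irradiated replicates 1, 2 and 3, against 11.6, 12.0 and 14.8 FPKM in control replicates 1, 2 and 3. Irradiated replicate 2 stood close to the controls, and the groups did not overlap. The log2 change of -0.69 ± 0.17 (SE) had a limma adjusted p of 0.0178. That call was lost without control replicate 3 (0.0689) and without irradiated replicate 1 (0.0571) or 3 (0.0661), and the changes without 1 library ran from -0.90 to -0.58. It was also lost without a trend (0.0530) and with no filter on low values (0.0807).

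Egr2 and Egr3, paralogues that restrain T cell activation, and Nab2, a co-repressor of EGR proteins, were called lower as deposited, and both paralogues are described here after their values were seen. Egr3 was at 0.530, 0.558 and 0.445 FPKM in irradiated and 1.76, 1.90 and 1.51 FPKM in control libraries, a log2 change of -0.85 ± 0.16 (SE) with a limma adjusted p of 0.00337 that was kept without any 1 library. Egr2 was at 0.668, 1.03 and 0.585 FPKM in irradiated and 2.31, 1.19 and 1.77 FPKM in control libraries. Its call (log2 change -0.63, limma adjusted p = 0.0455) was kept only without control replicate 2 (0.0328) or irradiated replicate 2 (0.0418). Without the other 4 libraries it ran from 0.0990 to 0.180. Nab2 was at 3.48, 4.69 and 5.85 FPKM in irradiated and 7.27, 6.90 and 7.10 FPKM in control libraries. Its call (log2 change -0.53, limma adjusted p = 0.0362) was kept only without irradiated replicate 3 (0.0121), and without the other libraries it ran from 0.0709 to 0.110. On the T cell scale Nab2 (log2 change -0.05, limma adjusted p = 0.786) and Egr2 (-0.33, 0.137) were not called, while Egr3 was (-0.57, 0.00728). Both paralogues passed the filter of 1 FPKM only through their control libraries, so their calls are a description, and at such low values adding 1 FPKM understates a change.

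Atf3, a bZIP factor of stress responses that pairs with Jun proteins and represses inflammatory genes, was the least abundant member on average (chromosome 1, 191170296 to 191218039, minus strand). Atf3 was at 2.03, 2.02 and 1.68 FPKM in irradiated replicates 1, 2 and 3, against 4.24, 6.11 and 2.50 FPKM in control replicates 1, 2 and 3. The irradiated libraries lay close together below all controls, and the controls were widely spread. The log2 change of -0.80 ± 0.22 (SE) had a limma adjusted p of 0.0311, kept only without control replicate 3 (0.00334). The call was lost without control replicate 1 (0.0970) or 2 (0.118) and without irradiated replicate 1 (0.0546), 2 (0.0592) or 3 (0.0883), with changes from -1.07 to -0.56. It was also lost with quantile normalization (0.0583), without a trend (0.0658) and with no filter on low values (0.113).

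**Figure D3:**
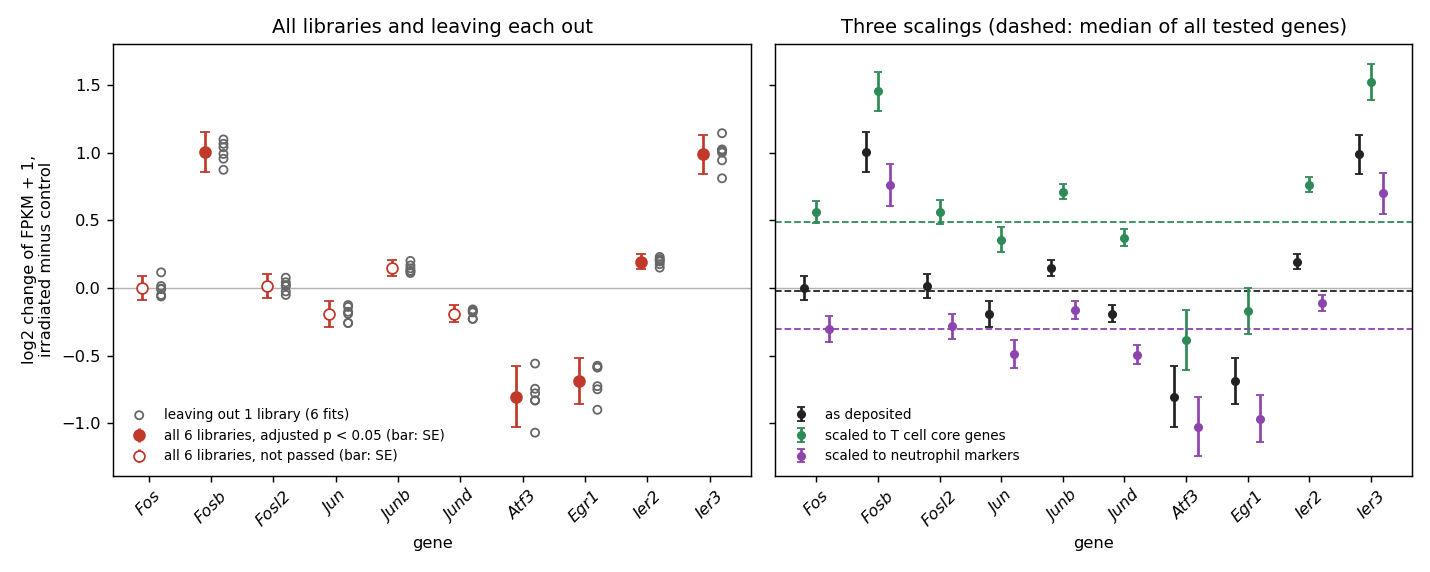
Log2 change of FPKM + 1 (irradiated minus control) of the 10 genes, on the left for all libraries (bar, SE) with the 6 fits that leave out 1 library, on the right under 3 scalings with the median of all tested genes as a dashed line. Fosb and Ier3 lie above their median line under each scaling and Egr1 and Atf3 below it, while Fos and Fosl2 stay near it.

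Across the 10 genes the levels ran in mean FPKM from Junb and Ier2, through Fos and Jund, then Jun, Fosl2, Ier3 and Egr1, to Fosb and Atf3. In irradiated libraries Junb and Ier2 differed by about the spread between libraries (116.5 ± 3.47 and 112.7 ± 3.04 FPKM, SD, n = 3), and Jun and Fosl2 by less than it (20.9 ± 1.89 and 21.3 ± 1.97 FPKM). Ier3 (23.2 ± 1.40 FPKM) was within the spread of Fosl2 there, and Fosb (6.16 ± 0.552 FPKM) was within the spread of Egr1 (7.73 ± 2.37 FPKM). In control libraries Ier3 (11.4 ± 2.79 FPKM) was instead within the spread of Egr1 (12.8 ± 1.72 FPKM), and Fosb (2.59 ± 0.560 FPKM) was within the spread of Atf3 (4.28 ± 1.81 FPKM). Among control libraries replicate 3 had the highest value of 9 of the 10 genes, Atf3 being the exception with its lowest value there. Over all tested genes control replicate 3 was the highest control library for 40.7%. The 10 genes summed to 427, 431 and 434 FPKM in irradiated replicates 1, 2 and 3, and to 381, 401 and 441 FPKM in control replicates 1, 2 and 3.

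Markers of other cell types also differed between the groups, and their part in the values of these 10 genes was not tested. Of 15 monocyte and macrophage markers 0 were higher and 14 lower, with sums of 618 to 642 FPKM in irradiated and 1276 to 1321 FPKM in control libraries. Of 11 tested B cell markers 0 were higher and 11 lower, with sums of 40.7 to 48.9 FPKM in irradiated and 123 to 129 FPKM in control libraries. Of 9 tested dendritic cell markers 0 were higher and 8 lower, with sums of 171 to 183 FPKM in irradiated and 395 to 416 FPKM in control libraries. The B cell precursor gene Igll1 and the dendritic cell gene Xcr1 were each listed at 0 in 2 irradiated libraries and in 0 control libraries. Of 10 erythroid markers 0 were higher and 6 lower, with sums of 733 to 766 FPKM in irradiated and 1090 to 1329 FPKM in control libraries. Of 9 NK and CD8 markers 0 were higher and 6 lower, with sums of 36.6 to 40.4 FPKM in irradiated and 69.4 to 71.8 FPKM in control libraries. Of 12 eosinophil, basophil and mast cell markers 6 were higher and 4 lower, with sums of 6079 to 6146 FPKM in irradiated and 6061 to 6676 FPKM in control libraries. Of 4 tested megakaryocyte markers 1 was higher and 1 lower, with sums of 73.1 to 74.8 FPKM in irradiated and 44.3 to 50.8 FPKM in control libraries. The neutrophil and megakaryocyte sums were thus higher in the irradiated libraries, though the tested megakaryocyte genes did not move in 1 direction. Fosb and Ier3 were higher too, also when scaled to neutrophil markers (log2 change 0.76 and 0.70). Whether the mix of cell types had a part in that was not tested.

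When each library was scaled to its T cell core genes the median of all tested genes moved to 0.49 on the log2 scale, with 8122 genes called higher and 280 lower. Scaled to the neutrophil markers it moved to -0.30, with 199 called higher and 5502 lower, against 671 higher and 1100 lower as deposited. Fosb changed by 1.46 ± 0.14 on the T cell scale and by 0.76 ± 0.16 on the neutrophil scale, and Ier3 by 1.53 ± 0.13 and 0.70 ± 0.15 (SE). Both were called higher on each scale, and Fosb lay 0.97 and 1.06 and Ier3 1.04 and 1.001 above the median of all genes on the T cell and neutrophil scales. Egr1 had a log2 change of -0.17 ± 0.17 on the T cell scale without a call (limma adjusted p = 0.373) and of -0.97 ± 0.17 on the neutrophil scale with one, which put it at -0.66 and -0.67 relative to the median of all genes. Atf3 had a log2 change of -0.39 ± 0.22 on the T cell scale without a call (limma adjusted p = 0.127) and of -1.03 ± 0.22 on the neutrophil scale with one. Ier2 had a log2 change of 0.76 on the T cell scale and of -0.11 on the neutrophil scale, so its direction flips, while it lay 0.27 and 0.19 above the median there.

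The other genes of the pathway were read from lists of the route into and out of these factors. Beside the counts in these lists, 6.29% of all tested genes were called higher and 10.3% lower as deposited. Of 17 tested genes of the MAP kinase cascade 0 were higher and 0 lower by limma as deposited, and the median log2 change was 0.07. Scaled to T cell core genes the list had 16 higher and 0 lower, and scaled to neutrophil markers 0 higher and 10 lower. One of them, Map2k2, the kinase MEK2, had an unadjusted limma p of 0.0496 as deposited, which did not pass after adjustment (0.168). Of 9 tested serum response factor, ternary complex and CREB genes 0 were higher and 1 lower as deposited, with a median of -0.10. Scaled to T cell core genes the list had 8 higher and 0 lower (median 0.43), and scaled to neutrophil markers 0 higher and 8 lower (median -0.38). The gene called lower as deposited was Creb1, which encodes the factor that binds the CREB site, at 13.7, 13.8 and 15.3 FPKM in irradiated and 17.4, 17.9 and 18.6 FPKM in control libraries. Its log2 change of -0.31 ± 0.09 (SE), which was 0.23 on the T cell scale with a call of higher (0.0259), had a limma adjusted p of 0.0285 that was kept only without irradiated replicate 3 (0.0276), and it ran up to 0.0862 without the other libraries.

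Of 11 tested bZIP partners of AP-1 1 was higher and 3 lower as deposited, with a median of -0.01. Scaled to T cell core genes the list had 7 higher and 2 lower, and scaled to neutrophil markers 0 higher and 3 lower. Maf, a factor of effector Tregs and of macrophages, was at 8.998 ± 0.774 FPKM in irradiated and 19.9 ± 0.540 FPKM in control libraries (log2 change -1.07 ± 0.09 SE, limma adjusted p = 1.49e-05). Maf was called lower on the T cell and the neutrophil scale too. Batf, which pairs with Jun proteins in T cells and supports effector Tregs, was at 21.6, 18.5 and 18.6 FPKM in irradiated and 28.7, 31.7 and 27.1 FPKM in control libraries. Its log2 change of -0.55 ± 0.09 (SE) had a limma adjusted p of 0.00145 and was kept without any 1 library, but not on the T cell scale (limma adjusted p = 0.974). Mafg, a small Maf protein, was at 26.1 ± 1.95 FPKM in irradiated and 19.4 ± 2.33 FPKM in control libraries, a log2 change of 0.42 ± 0.10 (limma adjusted p = 0.0138). The Mafg call was lost without control replicate 1 (0.0574) or irradiated replicate 2 (0.0538), and on the neutrophil scale (log2 change 0.12, limma adjusted p = 0.344). Of the monocyte and macrophage markers given above 14 of 15 were lower in the same libraries as Maf, and their part in its values was not tested.

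Of 26 other tested immediate early genes 2 were higher and 10 lower, against 6.29% and 10.3% of all tested genes. The median of the list was -0.20. The lower genes and the medians of this list include Egr2 and Egr3, which passed the filter of 1 FPKM only through their control libraries. These counts and medians are therefore a description. The 4 with the lowest p were all lower, and each was kept without any 1 library. Btg2, an antiproliferative gene, was at 29.6 ± 2.71 FPKM in irradiated and 42.5 ± 0.770 FPKM in control libraries (log2 change -0.51 ± 0.08 SE, limma adjusted p = 0.000841). Its relative Btg1 was at 49.7 ± 1.61 FPKM in irradiated and 65.6 ± 3.93 FPKM in control libraries (-0.39 ± 0.06). Nr4a1, an orphan receptor induced by the antigen receptor, was at 4.83 ± 0.147 FPKM in irradiated and 8.86 ± 0.977 FPKM in control libraries (-0.75 ± 0.12). Dusp2, a nuclear phosphatase of MAP kinases, was at 14.4 ± 0.492 FPKM in irradiated and 20.96 ± 0.819 FPKM in control libraries (-0.51 ± 0.08). The 2 higher genes, described after their values were seen, were Socs3, a feedback inhibitor of cytokine receptors, and Gadd45b, a stress gene. Socs3 was at 18.98 ± 1.44 FPKM in irradiated and 12.4 ± 1.64 FPKM in control libraries (log2 change 0.58 ± 0.11 SE, limma adjusted p = 0.00362) and was kept without any 1 library. Gadd45b (log2 change 0.27, limma adjusted p = 0.0451) was kept in 1 of the 6 fits that left out 1 library, without control replicate 3 (0.0486), and ran up to 0.174 in the others. Its log2 change was -0.02 on the neutrophil scale (limma adjusted p = 0.826). None of those 4 was called lower on the T cell scale, where Btg1 was called higher. Scaled to T cell core genes the list had 14 higher and 1 lower, and scaled to neutrophil markers 1 higher and 19 lower. Its median relative to that of all tested genes was -0.17 as deposited, -0.20 on the T cell scale and -0.19 on the neutrophil scale.

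Of 15 tested genes listed as brakes on immediate early factors 0 were higher and 6 lower, against 6.29% and 10.3% of all tested genes. The median of the list was -0.24. The 6 were Nab2, Zfp36l1, Dusp1, Dusp4, Dusp5 and Spred1, of which Dusp1 and Dusp5 are also in the list before. Whether each listed gene, Cops5 among them, acts as a brake in these cells was not tested. Zfp36l1, which binds AU-rich messages and speeds their decay, was at 19.8 ± 2.21 FPKM in irradiated and 30.4 ± 3.17 FPKM in control libraries (log2 change -0.59 ± 0.10 SE, limma adjusted p = 0.00191). Dusp5, a phosphatase of ERK in the nucleus, was at 6.21 ± 0.391 FPKM in irradiated and 11.3 ± 1.89 FPKM in control libraries (-0.76 ± 0.13), and Dusp4 was at 0.589 ± 0.252 FPKM in irradiated and 1.82 ± 0.337 FPKM in control libraries (-0.83 ± 0.18). These 3 calls were kept without any 1 library, and of the 3 only that of Dusp4 was also made on the T cell scale. Dusp4 passed the filter of 1 FPKM only through its control libraries, so its call and the counts and medians of this list are a description. Scaled to T cell core genes the list had 9 higher and 1 lower, and scaled to neutrophil markers 0 higher and 10 lower, with a median relative to that of all genes of -0.21 as deposited, -0.17 on the T cell scale and -0.19 on the neutrophil scale. Dusp1 (log2 change -0.24, limma adjusted p = 0.0381) was kept only without irradiated replicate 2 (0.0294) and ran up to 0.117 without the others. On the T cell scale Dusp1 turned round, with a log2 change of 0.32 and a call of higher (limma adjusted p = 0.00161). Spred1, an inhibitor of the Ras to ERK route (-0.52, 0.0345), was kept only without irradiated replicate 1 (0.0408) or 2 (0.0370) and ran up to 0.103 without the others. Its log2 change was -0.08 on the T cell scale (limma adjusted p = 0.620). Zfp36, which encodes tristetraprolin, was at 167 ± 9.61 FPKM in irradiated and 153 ± 22.8 FPKM in control libraries and did not pass.

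**Figure D4:**
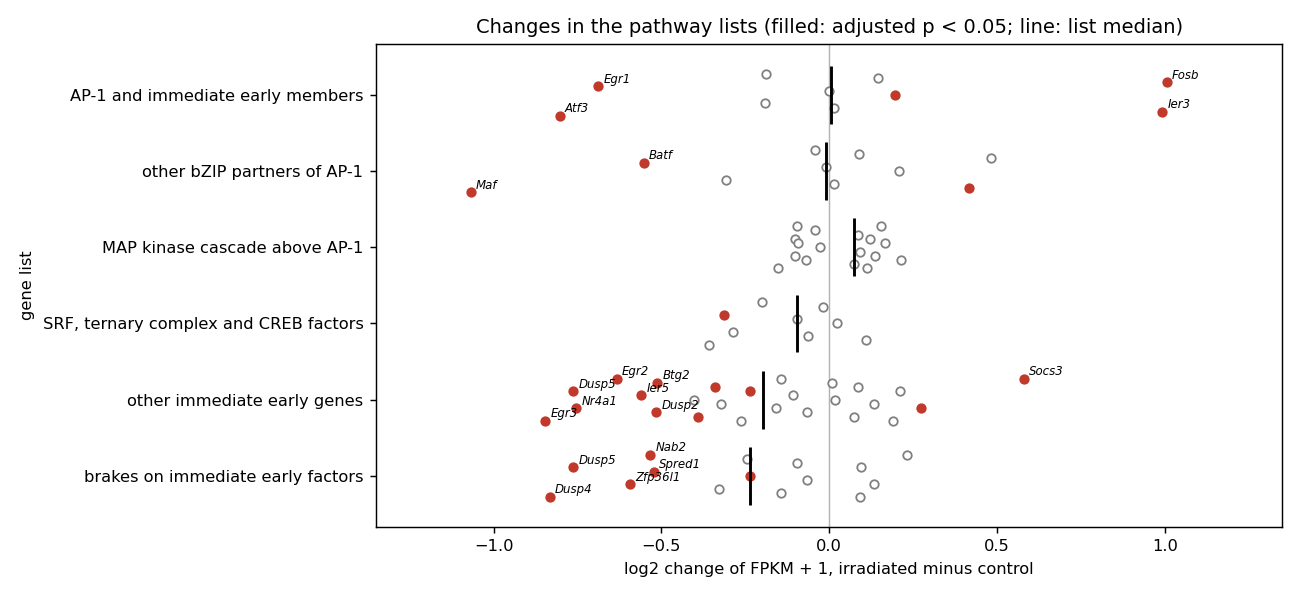
Log2 change of FPKM + 1 (irradiated minus control, x axis) of the tested genes in 6 lists (y axis; 1 bZIP partner is not drawn), filled where the limma adjusted p is under 0.05, with a line at the list median. Fosb and Ier3 lie farthest right of all genes plotted, at 1.01 and 0.99, and no gene of the MAP kinase list is filled.

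Messages of many immediate early genes are known to be short-lived, though decay was not measured here. Tristetraprolin and its relatives are known to bind the letters TATTTAT in 3′ untranslated regions. In the longest annotated 3′ untranslated region of each gene, TATTTAT was found in 7 of the 10 members, all but Egr1, Ier2 and Junb. These regions were 485 to 4653 bases long, and of 7244 tested genes with a region in that range 34.2% held it. Ier3 held 4 copies in 613 bases, Fosl2 3 copies in 4653 bases and Fos 2 copies in 815 bases. Fosb, Jun, Jund and Atf3 held 1 each.

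The genes whose profile over the 6 libraries was nearest to that of each called member were found by Euclidean distance between mean-centred log2(FPKM + 1) values, among 7884 genes averaging 5 FPKM or more. Nearest to Fosb were Ifitm1 (distance 0.302), Dmkn (0.306) and Dmxl2 (0.306), and nearest to Ier3 were Tnnt1 (0.291), Gk (0.347) and Ifitm1 (0.360). Among the members Fosb and Ier3 were nearest to each other (0.319), as were Junb and Ier2 (0.139). All these distances depend strongly on the size of the group difference already given. Nearness is therefore a description, and shared regulation was not tested. Nearest to Egr1 were Itgax (0.244), Tesk1 (0.266) and Glcci1 (0.312), and nearest to Atf3 were Nt5m (0.379), Dusp5 (0.469) and Hebp1 (0.514). Gcnt2 (0.0488) and Nkap (0.0583) were among the 3 nearest to Ier2. Ifitm1, an interferon-inducible membrane gene, was at 186 ± 9.05 FPKM in irradiated and 91.2 ± 6.22 FPKM in control libraries, and Itgax, which encodes the dendritic cell integrin CD11c, at 4.25 ± 0.994 FPKM in irradiated and 7.58 ± 1.09 FPKM in control libraries (SD, n = 3 each).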

How the data were processed

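RNA-seq of bone marrow cells labelled as sorted Tregs was analysed in 3 irradiated and 3 control libraries, grouped by their titles. Neutrophil marker transcripts exceeded T cell and Treg marker transcripts in each library. Per the labels' protocols, total RNA was purified with a micro column kit and a stranded mRNA kit made the libraries. The submitters' processing notes name fastp, HISAT2, StringTie, GRCm38 and mm10, without versions, settings or an annotation release. The authors deposited gene values read here as FPKM, from the column totals and the tools named, since the headers give no unit. They carry no counts, so no counting error can be given. Relative depth came from values under 0.1 FPKM, as the ratio at which most were ratios of whole numbers up to 6 (tolerance 0.001).

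limma 3.58.1 in R 4.3.3 (lmFit, eBayes with a trend) was run on log2(FPKM + 1), with a minimum mean of 1 FPKM, after a test on simulated data. Tables and plots were made with matplotlib 3.10.9, numpy 2.4.6 and pandas 2.3.3 under Python 3.11.15. Alternatives were a pseudocount of 0.1 FPKM, no filter or a minimum mean of 5 FPKM, 4 scalings (median of ratios, quantile, T cell core genes, neutrophil markers), no trend, array weights, a replicate block, and each library left out. The members, lists and alternatives were chosen with earlier results of these data known. Genes named were all members, the called genes of each pathway list (the 4 with the lowest p where over 6 were called) and the 3 nearest profiles of each called member. Genes outside that rule were picked after their values were seen, or serve as checks. Some genes that the rule names are not reported here.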

Additional observations from a re-analysis of the deposited data

How the results depend on the processing

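Fosb and Ier3 were called higher in each alternative in which they were tested, and Fosb was not tested with a minimum mean of 5 FPKM. Of the 10 members 5 were called, beside 16.6% of all tested genes. With no filter 2 members were called (9.14% of all genes) and without a trend 2 (13.2%). With a minimum mean of 5 FPKM 3 of 8 tested members were called (19.3% of all genes). Scaled to T cell core genes 8 were called (78.8% of all genes), and scaled to neutrophil markers 8 (53.5%). When 1 library was left out 2 to 5 members were called, beside 10.7% to 15.6% of all genes. Over all genes 1771 were called, against 8402 on the T cell scale, 5701 on the neutrophil scale, and 1136 (without control replicate 2) to 1662 when 1 library was left out. Direction turned on the neutrophil scale for Fos (-0.30), Fosl2 (-0.28), Junb (-0.16) and Ier2 (-0.11), and on the T cell scale for Jun (0.36) and Jund (0.37). These shifts follow from the scaling, which moves the median of all genes the same way. Leaving out 1 library gave -0.063 to 0.12 for Fos and -0.051 to 0.076 for Fosl2. Same-numbered libraries of the 2 groups did not deviate together (r of 0.01, -0.04 and -0.02 across genes). A small shared effect, or one on few genes, need not show in such an r. Whether the numbers pair the libraries is therefore not known. With a replicate block 1506 genes (14.1%) and 4 members were called, Ier2 being lost. The ratios of Fosb to Fos and of Junb to Jun then had an exact p of 0.25, the smallest that 3 pairs allow. Both ratios kept their direction in each alternative run. The unknown depth limits what can be said of Fosb, Atf3, Egr2 and Egr3 at low FPKM.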
